A study of Oryctolagus cuniculus with 6 samples.

Results

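Heat shock proteins and chaperones are the proteins that fold, refold and escort other proteins. The genes described here were every rabbit gene with a probe whose array description named a heat shock protein, a DnaJ protein, a chaperonin or a protein disulfide isomerase. That search found 154 probes for 63 genes, among 23387 genes and unnamed transcripts on the array. Of these 63 genes, 61 cleared background clearly on 3 arrays or more and were tested. DNAJB7 and DNAJC16 were not well above background on any array.

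The samples came from male New Zealand White rabbits, 4 months old. Each animal carried 4 round holes of 5 mm in the parietal bone of the skull, and the series used 24 rabbits. Per animal, 2 holes were filled with 0.2 g of human particulated dentin (HPD, ground human tooth dentin used as a bone graft) and the other two were left empty as controls. RNA of the newly formed tissue was taken 3, 5 or 7 days later and hybridised in 1 colour, giving 6 groups: HPD day 3, control day 3, HPD day 5, control day 5, HPD day 7 and control day 7. All of the groups were wounded bone, so none shows unwounded bone. Each group had 1 array, and the labels used here do not say how many animals were pooled on it. The 6 arrays are therefore the only replication: an HPD effect was estimated over the 3 days, and a day effect over the 2 treatments. The day 3 arrays lay on another slide than the day 5 and day 7 arrays, so day 3 and slide cannot be told apart, whereas HPD and control shared a slide on every day.

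Between 78.1% and 86.4% of probes were well above background on an array, and none was saturated. The 75th percentile of the signal was 459, 407 and 328 units in HPD and 471, 403 and 309 units in control defects on days 3, 5 and 7. Every level below is log2 of the signal minus this percentile, so that 0 is the array's 75th percentile. Levels of different probes depend on the probe as well as the transcript and are not ranked against each other. Of 10 osteoblast genes 7 were measured, all well above background on all 6 arrays, among them COL1A1, IBSP and SPP1. At least 78.1% of all probes were well above background on every array, so this does not test the bone label.

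Cytosolic chaperones hold newly made or heat-damaged proteins: the HSP70 proteins bind exposed stretches of chain, DNAJ proteins deliver clients to them, HSP90 finishes signalling proteins, the ring-shaped CCT complex folds actin and tubulin, and small heat shock proteins keep clients soluble. The transcription factor HSF1 drives many of these genes under stress. In the endoplasmic reticulum (ER) a second set works on proteins to be secreted, and in a bone-forming tissue much of that load is collagen. There SERPINH1 (HSP47) binds folded procollagen, disulfide isomerases of the PDIA family pair cysteines, and ER DNAJ proteins assist HSPA5. Another set, with HSPD1, HSPE1 and HSPA9, serves the mitochondrion.

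The results turn on a few genes, and the 60-base probes that measured them are given first, 5′ to 3′, with their place in the rabbit build oryCun2 as the array's own annotation gives it. The SERPINH1 probes are shown because both gave the same course over the days; they lay on chromosome 1, minus strand, at chr1:141174552-141174611 (the brighter, used here) and chr1:141172278-141172337.
SERPINH1, used: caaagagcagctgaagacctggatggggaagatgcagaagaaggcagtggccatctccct
SERPINH1, second: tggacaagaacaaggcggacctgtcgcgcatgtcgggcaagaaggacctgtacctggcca
The HSPA12B probes are shown because they disagreed; they lay on chromosome 4, plus strand, at chr4:10612120-10614388 (the brighter, spread over a longer stretch of genome than its 60 bases) and chr4:10621413-10621472.
HSPA12B, used: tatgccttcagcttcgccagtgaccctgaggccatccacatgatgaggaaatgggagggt
HSPA12B, second: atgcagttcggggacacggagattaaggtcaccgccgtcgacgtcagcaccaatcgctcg
The HSP90AB1 probe, on chromosome 12, plus strand, at chr12:33632073-33632239, is shown because 4 near-identical probes measured the gene; the 56 bases in capitals are shared by all 4, so they are not independent readings.
HSP90AB1, used: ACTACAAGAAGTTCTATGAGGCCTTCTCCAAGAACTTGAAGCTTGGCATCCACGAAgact
The probes of the HSP70 genes HSPA1A (chr12:20630442-20630501, minus strand) and HSPA2 (chr20:12233116-12233175, plus strand) are shown because they overlap in sequence: 29 of 36 aligned bases, in capitals, were equal.
HSPA1A: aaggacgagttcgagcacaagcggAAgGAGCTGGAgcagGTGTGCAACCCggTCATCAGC
HSPA2: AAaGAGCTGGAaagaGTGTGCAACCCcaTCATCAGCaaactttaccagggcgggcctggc
The PDIA3 probe, on chromosome 17, minus strand, at chr17:28566886-28567164, is shown because the order of the treatments turned round between days 5 and 7.
PDIA3, used: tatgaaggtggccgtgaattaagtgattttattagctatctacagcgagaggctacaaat

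No chaperone gene passed the test in any comparison at an adjusted p under 0.05. The test was limma's moderated test on a model with day and treatment over all 6 arrays, adjusted with Benjamini-Hochberg over all 20239 genes and transcripts tested. For the HPD effect 0% of all features passed, and the lowest adjusted p was 0.556. For day 5 minus day 3 and for day 7 minus day 3, 0.00494% passed (the same 1 transcript, named only by a locus number and higher on the later day), and for day 7 minus day 5 0% passed, with a lowest adjusted p of 0.148. At an unadjusted p under 0.05 the members numbered 3 for the HPD effect (4.92%, against 8.56% of all features), 10 for day 5 minus day 3 (16.4% against 16.3%), 14 for day 7 minus day 3 (23% against 20.9%) and 2 for day 7 minus day 5 (3.28% against 8.08%). These shares were close to or under those of all features, so what follows describes these 6 arrays. With normexp in place of the scanner software's background correction, 4 members passed for day 7 minus day 3 (HSPA12B, HSP90AB1 and HSPA1A lower, SERPINH1 higher), among 1024 of all features, and 1 member, HSPA12B, passed for day 5 minus day 3, among 282.

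The chaperones varied little. Over the 6 arrays the median range of a chaperone gene, highest minus lowest level, was 0.62 log2 units, against 0.79 for all features tested and 0.67 for the 5260 features with a mean level above 0. Only 8 of the 61 genes spanned at least 1 log2 unit (13.1%, against 34.7% of all features and 24.1% of features with a mean level above 0): HSPA12B, DNAJC5B, SERPINH1, DNAJB2, CCT6B, CCT5, PDIA6 and HSPA1A. The plot of all tested genes by array shows these rows as the darkest.

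**Figure D1:**
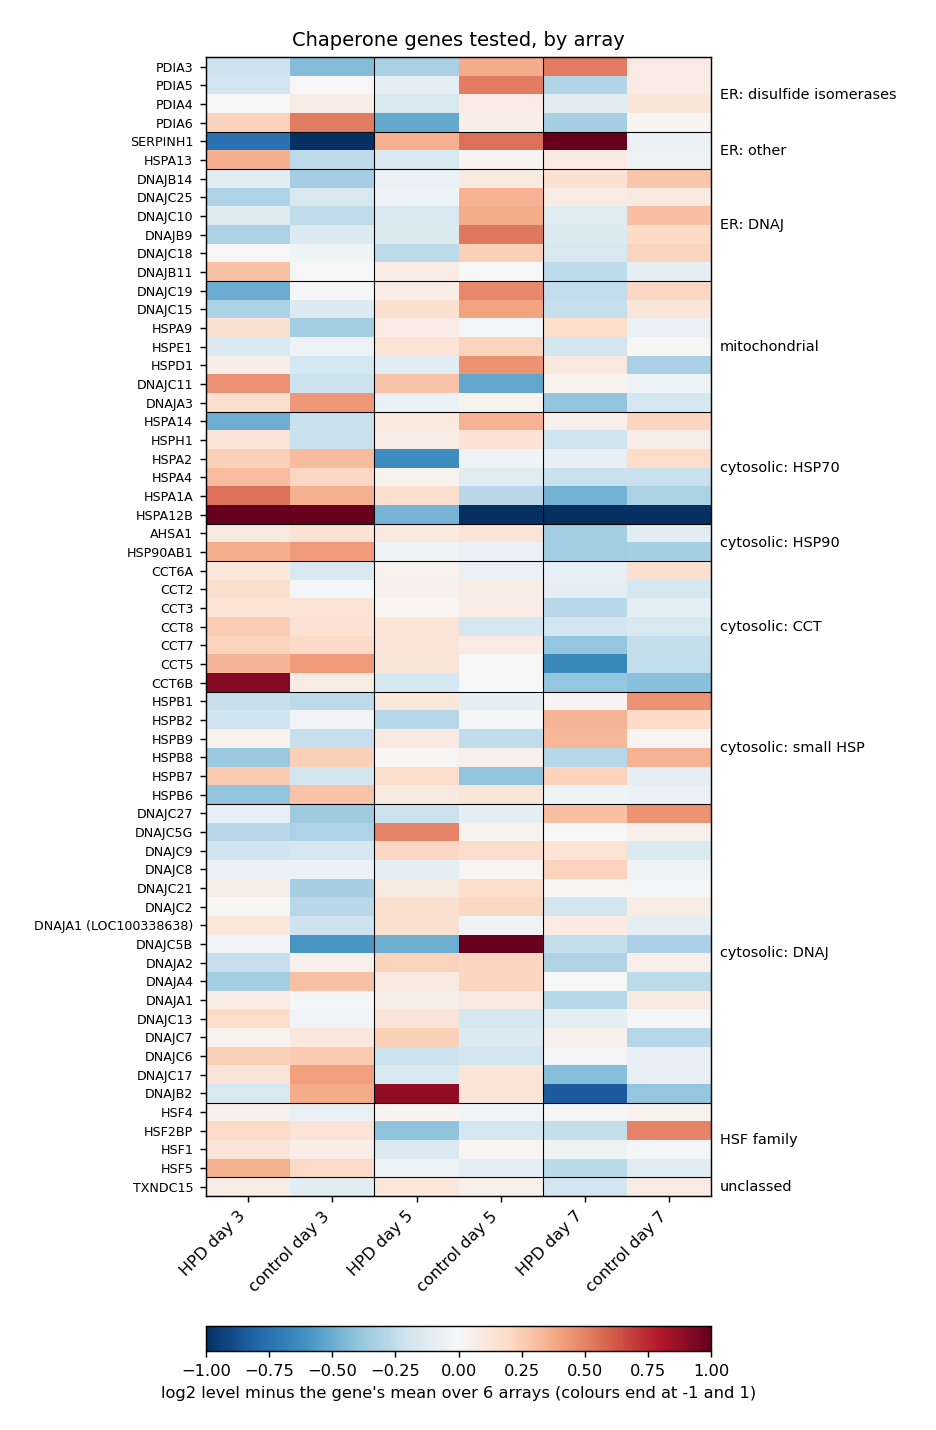
Level of each of the 61 tested chaperone genes (rows, by compartment and family) on the 6 arrays (columns), as log2 level minus the gene's own mean; red is above and blue below that mean, and colours end at -1 and 1. SERPINH1 is low on both day 3 arrays, HSPA12B is high on both, and most other rows are pale.

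SERPINH1, the collagen-specific chaperone of the ER, had the largest excess on day 7 over day 3. Its level was 1.53, 2.64 and 3.30 in HPD defects on days 3, 5 and 7, against 1.17, 2.83 and 2.23 in control defects. Both later days lay above both day 3 arrays, and the highest value was that of HPD defects on day 7. Day 7 minus day 3 was 1.41 ± 0.34 (SE, 6 arrays, limma), a 2.66-fold excess with an adjusted p of 0.152. The second probe read 0.65, 1.15 and 1.92 in HPD and 0.49, 1.66 and 1.46 in control defects, so it showed the same order on each day.

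The genes of collagen and of its processing enzymes had the same sign as SERPINH1 over the days. On day 7 against day 3, all 15 measured genes of that list (24 listed) were higher, with a median of 1.15 against -0.012 for all features. None passed after adjustment and 10 had an unadjusted p under 0.05. COL5A2 was higher by 2.22 ± 0.47 (SE, limma), COL3A1 by 1.92 and COL1A1 by 1.59. Of 7 measured osteoblast genes 6 were higher on day 7 than on day 3, with a median of 2.23, and of 7 fibroblast genes 6, with a median of 1.06. All 7 measured neutrophil genes were lower, with a median of -4.81, and all 8 macrophage genes were lower, with a median of -0.76. In tissue RNA a change in the number of a cell type and a change in RNA per cell cannot be told apart, and the part of these cell types in the chaperone levels was not tested.

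The disulfide isomerases of the ER split over time. PDIA3, which folds glycoproteins together with calnexin and calreticulin, read 3.33, 3.21 and 4.05 in HPD defects on days 3, 5 and 7, against 3.10, 3.91 and 3.62 in control defects. HPD was the higher treatment on days 3 and 7 and the lower on day 5. The day 7 minus day 3 difference was 0.62 ± 0.32 (SE, limma adjusted p = 0.343), and the second PDIA3 probe gave 1.02. PDIA6, another isomerase, ran the other way, with 2.49, 1.75 and 1.93 in HPD and 2.79, 2.33 and 2.29 in control defects. Both treatments were lower on day 7 than on day 3, by 0.53 ± 0.17 in the limma fit (adjusted p = 0.206). PDIA4 stayed between 1.58 and 1.86 on all 6 arrays, and PDIA5 between -0.47 and 0.34.

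Of the ER DNAJ genes 5 of 6 were higher on day 7 than on day 3, with a median of 0.27. DNAJB14 was highest among them, at 1.74, 1.79 and 2.01 in HPD and 1.52, 1.95 and 2.13 in control defects, a difference of 0.44 ± 0.19 (limma adjusted p = 0.273). DNAJB11, a co-chaperone that binds unfolded clients, was the exception, with 3.94, 3.73 and 3.38 in HPD against 3.64, 3.64 and 3.55 in control defects, and day 7 minus day 3 of -0.33 ± 0.19. HSPA13, an HSP70 relative found in microsomes, differed by -0.036 over that interval.

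HSPA5 itself, the main HSP70 of the ER, was not described on the array in the words of the search, and its probes were named here through RefSeq. It read 2.49, 2.004 and 1.49 in HPD defects on days 3, 5 and 7, against 2.37, 1.94 and 1.44 in control defects. Day 7 minus day 3 was -0.97 ± 0.16 (SE, limma adjusted p = 0.119), with no overlap between the days. Together with 8 more ER chaperone genes outside the search, among them HSP90B1, P4HB, ERP29 and ERP44, the median was 0.043, with 5 of 9 higher. HSP90B1, the ER member of the HSP90 family, had 6.69, 6.66 and 6.63 in HPD and 6.31, 6.77 and 6.46 in control defects.

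The cytosolic HSP70 and HSP90 genes and the CCT ring were mostly lower on day 7 than on day 3. Of the 6 HSP70 genes 5 were lower (median -0.36), of the HSP90 pair (HSP90AB1 and its activator AHSA1) both were lower (median -0.54), and of the 7 CCT subunits 6 were lower (median -0.38), against a median of -0.012 for all features, of which 51.2% were lower. These directions were kept with quantile scaling, a shift to the median, normexp background or the mean of all probes, except that under the median shift 4 of the 6 HSP70 genes were lower. None of the genes passed after adjustment. The cytosolic chaperones as a whole were divided, with 21 of 37 lower and a median of -0.10 in the fit, and in control defects alone 19 of 37 were higher on day 7.

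HSP90AB1, the constitutive cytosolic HSP90, gave the most even course. Its level was 0.61, 0.20 and -0.10 in HPD defects on days 3, 5 and 7, against 0.68, 0.18 and -0.08 in control defects. The treatments differed by at most 0.068 on any day, while each later day lay below the earlier one in both. Day 7 minus day 3 was -0.73 ± 0.16 (SE, limma adjusted p = 0.143), a 1.66-fold lower signal on day 7, and its 4 overlapping probes gave differences between -0.90 and -0.70.

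HSPA1A, the stress-inducible HSP70, read 1.43, 1.05 and 0.40 in HPD defects on days 3, 5 and 7, against 1.24, 0.60 and 0.56 in control defects. Both day 7 arrays lay below all earlier ones. Day 7 minus day 3 was -0.85 ± 0.21 (SE, limma adjusted p = 0.157), and HPD was above control on days 3 and 5 and below it on day 7. In human the gene has near-identical copies, and its single probe here cannot be assumed to separate them. HSPA2, an HSP70 best known from testis whose probe partly matches the HSPA1A probe, read 1.84, 0.99 and 1.53 in HPD and 1.92, 1.57 and 1.79 in control defects, a different course with its lowest values on day 5.

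HSPA8, the constitutive HSP70, also outside the search words and named through RefSeq, stood at 5.23, 5.18 and 4.29 in HPD and 5.15, 4.87 and 4.70 in control defects. The day 7 minus day 3 difference was -0.69 ± 0.23 (limma adjusted p = 0.215). Of the 6 tested cytosolic chaperones outside the search, 4 were higher on day 7 than on day 3, with a median of 0.28. HSPA4, which exchanges nucleotide on HSP70, read 4.39, 4.11 and 3.85 in HPD against 4.28, 3.96 and 3.85 in control defects, a difference of -0.49 ± 0.16 between days 7 and 3 (adjusted p = 0.21). HSPH1, of the same exchange-factor family, differed by -0.019 between those days. HSPA14, an HSP70 that works at the ribosome, was the 1 HSP70 gene higher on day 7, with 2.82, 3.41 and 3.35 in HPD and 3.09, 3.65 and 3.53 in control defects. Its 3 probes gave 0.49 to 0.57.

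Among the CCT subunits the difference between days 7 and 3 was largest for CCT6B and CCT5. CCT5 read -0.82, -1.04 and -1.80 in HPD against -0.74, -1.16 and -1.41 in control defects, lower by 0.83 ± 0.20 on day 7 (SE, limma adjusted p = 0.152). Each later day lay below the one before it in both treatments. CCT6B, a subunit known mainly from testis, was dim: its brighter probe read -2.71 in HPD defects on day 3 and between -4.05 and -3.55 on the other 5 arrays. CCT7 had 3.05, 2.95 and 2.43 in HPD and 3.00, 2.90 and 2.57 in control defects, and its second probe gave -1.07 between days 7 and 3. CCT2 (-0.20), CCT3 (-0.32) and CCT8 (-0.38) were lower by less, and CCT6A (0.063) was not lower, although its second probe gave -0.22. TCP1, the subunit of the ring that the search words left out, differed by -0.14 ± 0.17. In HPD defects all 7 CCT genes were lower on day 7 than on day 3 (median -0.45), and in control defects 6 of 7 (median -0.30).

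Of 19 measured co-chaperones and helpers of the cytosolic machines (26 listed) 10 were higher and 9 lower on day 7 than on day 3, and none passed after adjustment. FKBP5 (-1.40), FKBP4 (-0.79) and STIP1 (-0.65) were the lowest, and PFDN4 (0.61), a prefoldin subunit, and CHORDC1 (0.53) the highest.

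The small heat shock proteins were the cytosolic family with the opposite sign. All 6 were above 0 for day 7 minus day 3, with a median of 0.18, and all 6 were above 0 under each scaling tried, against 48.8% of all features in the main scaling, although the values of HSPB6 (0.0055) and HSPB7 (0.034) were near 0. Within each treatment alone, 5 of 6 were above 0. The median level of the family was -2.89, so most of these values came from dim probes. HSPB1, the widely expressed member, had 3.64, 3.99 and 3.90 in HPD and 3.61, 3.77 and 4.32 in control defects, a difference of 0.48 ± 0.22 between days 7 and 3 (limma adjusted p = 0.296). HSPB2, known from muscle, differed by 0.38 ± 0.19 at a level near -4. CRYAB, a small heat shock protein outside the search words, differed by 1.41 ± 0.57 (adjusted p = 0.263), with -1.65, -1.32 and 0.44 in HPD against -0.76, 0.53 and -0.03 in control defects. Of 7 measured skeletal muscle genes 4 were higher on day 7 than on day 3, with a median of 0.25, and the part of muscle RNA in these levels was not tested.

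**Figure D2:**
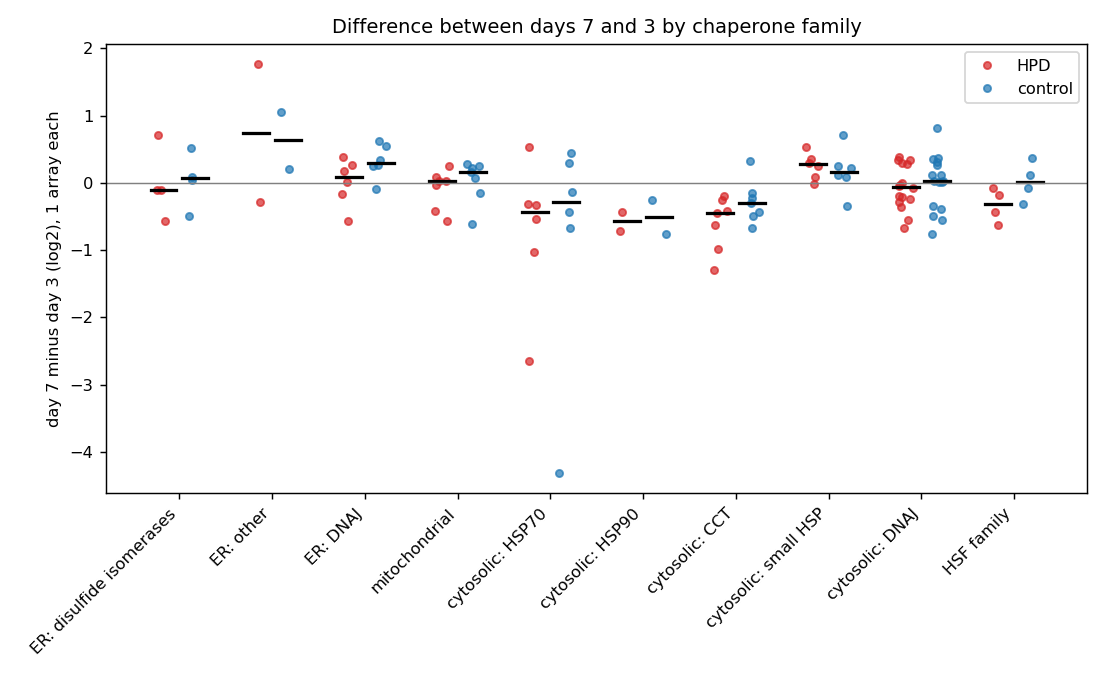
Day 7 minus day 3 (log2) for each tested chaperone gene by family, with HPD defects in red and control defects in blue; each point is 1 gene from 1 array per day and black bars are medians. The CCT, HSP70 and HSP90 medians lie below 0 in both treatments, the small heat shock protein medians above 0, and the lowest point of each treatment is HSPA12B.

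HSPA12B, a distant HSP70 relative described mainly in blood vessel endothelium, had the largest difference of all members and rests on 1 probe. That probe read 0.41, -1.66 and -2.25 in HPD defects on days 3, 5 and 7, against 1.59, -2.55 and -2.72 in control defects. The day 3 arrays stood apart from all later ones, and day 7 minus day 3 was -3.48 ± 0.54 (SE, limma adjusted p = 0.118), 11.2-fold lower on day 7. The second HSPA12B probe, further along the gene, read -3.61, -3.72 and -3.70 in HPD and -3.56, -3.98 and -2.65 in control defects, with day 7 minus day 3 of 0.41. With the mean of both probes the gene's difference was therefore smaller. Of 7 measured endothelial genes, a list chosen after these values were seen, 3 were higher and 4 lower on day 7, with a median of -0.016.

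Within 1 slide, day 7 against day 5, the cytosolic chaperones were mostly lower: 27 of 37, with a median of -0.17, against 39.9% of all features lower and a median of 0.080. Of features with a mean level above 0, 50.4% were lower, with a median of -0.0052. Among all chaperones, 22 of 61 (36.1%) had both day 7 arrays below both day 5 arrays, against 15.7% of all features and 25.8% of features with a mean level above 0. Only 4 (6.56%) had both above, against 24.5% of all features. Brightness bears on this count too: in the fit, 49.6% of features with a mean level above 0 were higher, against 60.1% of all features. The cytosolic median was below 0 in all 7 alternatives run for it, between -0.25 and -0.093. CCT5 (-0.51 ± 0.20), CCT7 (-0.42 ± 0.17), DNAJA2 (-0.35 ± 0.18), HSPA1A (-0.34 ± 0.21) and AHSA1 (-0.34 ± 0.16) were among the lowest (each SE, limma). The highest was DNAJC27, a small GTPase with a J domain, at 0.53 ± 0.19, with -3.53, -3.67 and -3.15 in HPD and -3.81, -3.54 and -3.00 in control defects. Its other 4 probes, each shifted by a few bases and so not independent readings, gave 0.018 to 0.34. None of these differences passed after adjustment.

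The mitochondrial chaperones were not all alike. Of 7 genes, 5 were higher on day 5 than on day 3 (median 0.22), and 5 were lower on day 7 than on day 5 (median -0.27). Of features with a mean level above 0, 62.4% were higher and 50.4% lower in those comparisons. Between days 3 and 5, 3 of 7 were higher in HPD defects alone and 5 of 7 in control defects. HSPE1, the co-chaperonin, read 6.23, 6.51 and 6.20 in HPD and 6.32, 6.60 and 6.39 in control defects, and its partner HSPD1 read 3.88, 3.71 and 3.92 in HPD against 3.64, 4.26 and 3.49 in control defects. On each of the 3 days HSPE1 was lower in HPD, whereas HSPD1 was higher in HPD on days 3 and 7. HSPA9, the mitochondrial HSP70, read 2.79, 2.72 and 2.82 in HPD against 2.29, 2.63 and 2.58 in control defects. DNAJA3, its J-protein partner, was lower on day 7 than on day 3 by 0.59 ± 0.16 (limma adjusted p = 0.172). Of 7 measured genes of the mitochondrial stress list (16 listed) 4 were higher and 3 lower over that interval.

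HSF1 and HSF4 varied little. HSF1 read 0.47, 0.19 and 0.29 in HPD and 0.40, 0.36 and 0.32 in control defects, a range of 0.28, and HSF4 had a range of 0.12. HSF5, dim and well above background on 5 arrays but not on HPD day 7, differed by -0.47 ± 0.17 between days 7 and 3 (limma adjusted p = 0.236). HSF2BP, which binds HSF2, had its largest treatment difference on day 7, at -0.74.

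**Figure D3:**
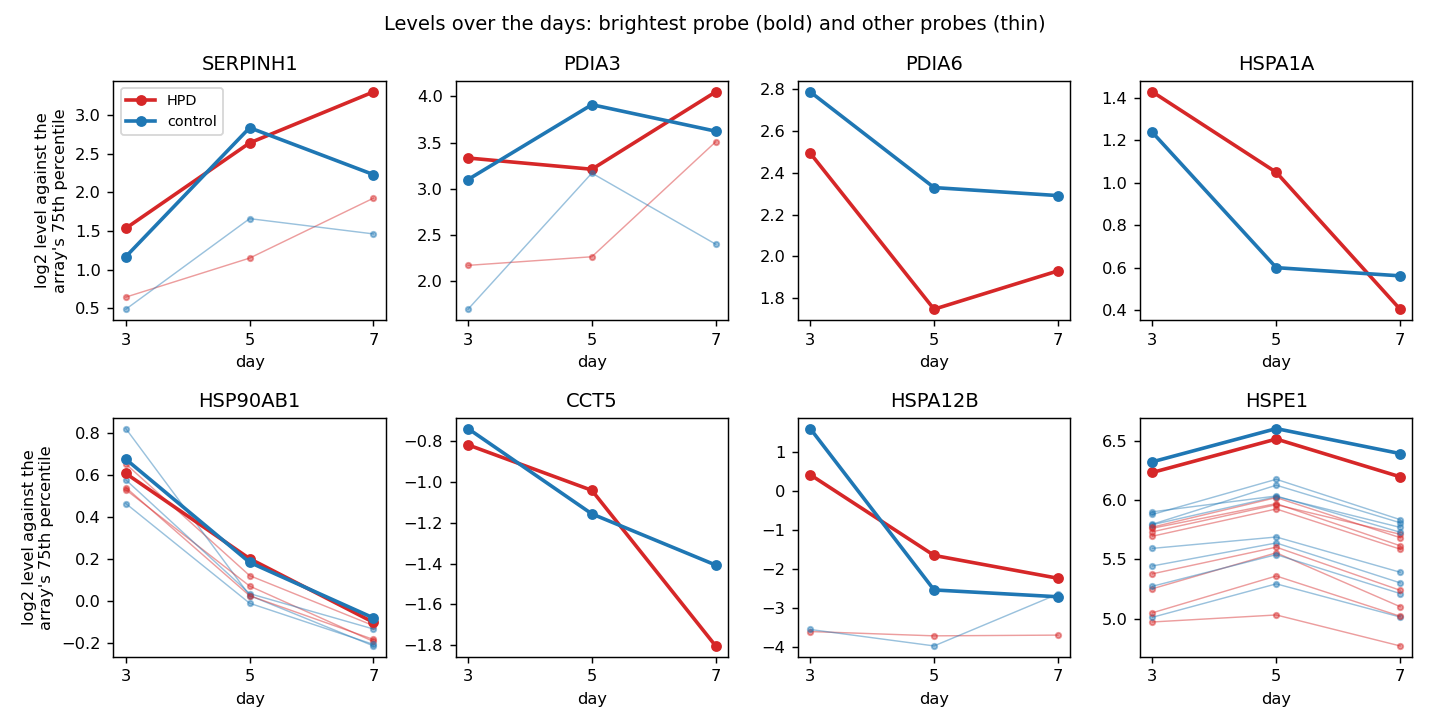
Level (log2, 0 is the array's 75th percentile) of 8 genes on days 3, 5 and 7, with HPD defects in red and control defects in blue; the bold line is the brightest probe and thin lines are the gene's other probes, each point 1 array. The SERPINH1 lines cross between days 5 and 7, both HSP90AB1 lines run together, and the second HSPA12B probe does not follow the first.

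For HPD against control the secretory-pathway chaperones found by the search were mostly lower on days 5 and 7, with the lowest median on day 5. On that day, 11 of the 12 tested genes were lower in HPD than in control defects, with a median of -0.45 and a range of -0.70 to 0.083, against a median of 0.090 for all features, of which 41.2% were lower. Among features with a mean level above 0 the median was -0.056, and 57.1% were lower. The largest differences were those of PDIA3 (-0.70), DNAJB9 (-0.66), PDIA5 (-0.61), PDIA6 (-0.58) and DNAJC10 (-0.53), and DNAJB11 (0.083) was the exception. The count was 11 or 12 and the median between -0.58 and -0.39 with each scaling and with the mean of all probes. With 1 array per treatment and day, this difference has no replicate check.

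Set against day 3, the median of these genes on day 5 was about the same in HPD defects and higher in control defects. The median of the 12 genes, each minus its own mean, was -0.12, -0.15 and -0.12 in HPD defects on days 3, 5 and 7, against -0.15, 0.29 and 0.09 in control defects. On day 5, 5 of 12 were above their day 3 level in HPD (40.2% of all features were) and 10 of 12 in control defects (47.2% were). Of features with a mean level above 0, 58.2% were above their day 3 level in HPD and 62.1% in control defects. Single genes differed more in HPD defects, where day 5 minus day 3 ran from -0.745 for PDIA6 to 1.102 for SERPINH1. DNAJB9, an ER DNAJ protein, is an example, with 2.17, 2.36 and 2.35 in HPD against 2.35, 3.02 and 2.69 in control defects. DNAJC10, a DNAJ protein that reduces disulfide bonds, is another, with 2.62, 2.60 and 2.63 in HPD against 2.50, 3.12 and 3.05 in control defects. For both, the control arrays of days 5 and 7 were the highest.

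Of the 9 ER chaperone genes outside the search, 5 were higher and 4 lower in HPD on day 5 (median 0.023), so not every ER chaperone was lower. HSPA5 differed by 0.067 and P4HB, a disulfide isomerase that is also part of prolyl hydroxylase, by 0.18, while ERP29 differed by -0.47 and SEC63 by -0.35. The collagen list had all 15 genes lower in HPD on day 5, with a median of -0.66. COL5A2 (-1.35), COL1A1 (-1.26) and PLOD2 (-0.94), an enzyme that modifies collagen lysines, were among the largest. Osteoblast genes were lower as well on that day (5 of 7, median -1.83), and all 8 macrophage genes were higher (median 0.95). Of 7 fibroblast genes 4 were higher and 3 lower (median 0.17). The part of these cell types in the chaperone values was not tested. The summed level of the macrophage genes was 5.80, 5.35 and 4.89 in HPD and 5.23, 4.37 and 4.52 in control defects on days 3, 5 and 7 (log2), and that of the osteoblast genes was 8.44, 8.69 and 8.91 against 7.01, 8.92 and 8.10. Such a sum is weighted to the brightest genes and need not follow the list. On day 3 the osteoblast sum was higher in HPD, while 4 of 7 genes were lower (median -0.095).

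On day 7 the secretory median was -0.20 with 9 of 12 lower, and on day 3 it was 0.083 with 5 of 12 lower (-0.090 with the median shift, so no direction is given for day 3), against medians of 0.058 and 0.14 for all features, of which 43.6% and 35.4% were lower. Among features with a mean level above 0, 55.8% were lower on day 7, with a median of -0.040. Of the 9 ER chaperone genes outside the search, 4 were higher and 5 lower on day 7 (median -0.0090). The 3 genes of the search higher in HPD on day 7 were SERPINH1, PDIA3 (0.42) and HSPA13 (0.14). SERPINH1 was 1.07 higher in HPD on that day, a 2.10-fold difference. By the brightest probe of each gene, SERPINH1 was the 1 member at least 2-fold higher in HPD on any day, against 1.63% of all features on day 7. With the mean of both SERPINH1 probes the difference was under 2-fold. The second PDIA3 probe was 1.11 higher in HPD on day 7, so this ranking depends on the probe. COL1A1, a gene of both the osteoblast and the collagen list, was 1.15 higher in HPD on day 7. On that day 7 of 7 osteoblast genes were higher (median 0.88), whereas 8 of 15 collagen-list genes were lower. COL3A1, of the collagen and fibroblast lists, differed by -0.73, and 6 of 7 fibroblast genes were lower (median -0.73).

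For the cytosolic chaperones the median HPD difference was 0.026 on day 3, -0.022 on day 5 and -0.050 on day 7 over 37 genes, with 17, 19 and 22 lower. These medians changed sign with the scaling on days 3 and 5, so no direction is given. Of the unfolded protein response list, 15 of 29 genes were measured, 8 were higher and 7 lower for the HPD effect (median 0.065), and none passed after adjustment. By day, 11, 6 and 9 of the 15 were higher in HPD on days 3, 5 and 7. The medians were 0.16, -0.046 and 0.021, against 0.14, 0.090 and 0.058 for all features. The genes named next all lay on the higher side, so they do not stand for the list. ATF3, a stress transcription factor, was higher in HPD on every day, by 1.87, 0.92 and 0.74, and ERO1A, the oxidase that recharges disulfide isomerases, by 0.85, 0.92 and 0.28. ERN1, the ER stress sensor, was higher by 2.09 on day 3 and by 0.21 and 0.15 later.

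**Figure D4:**
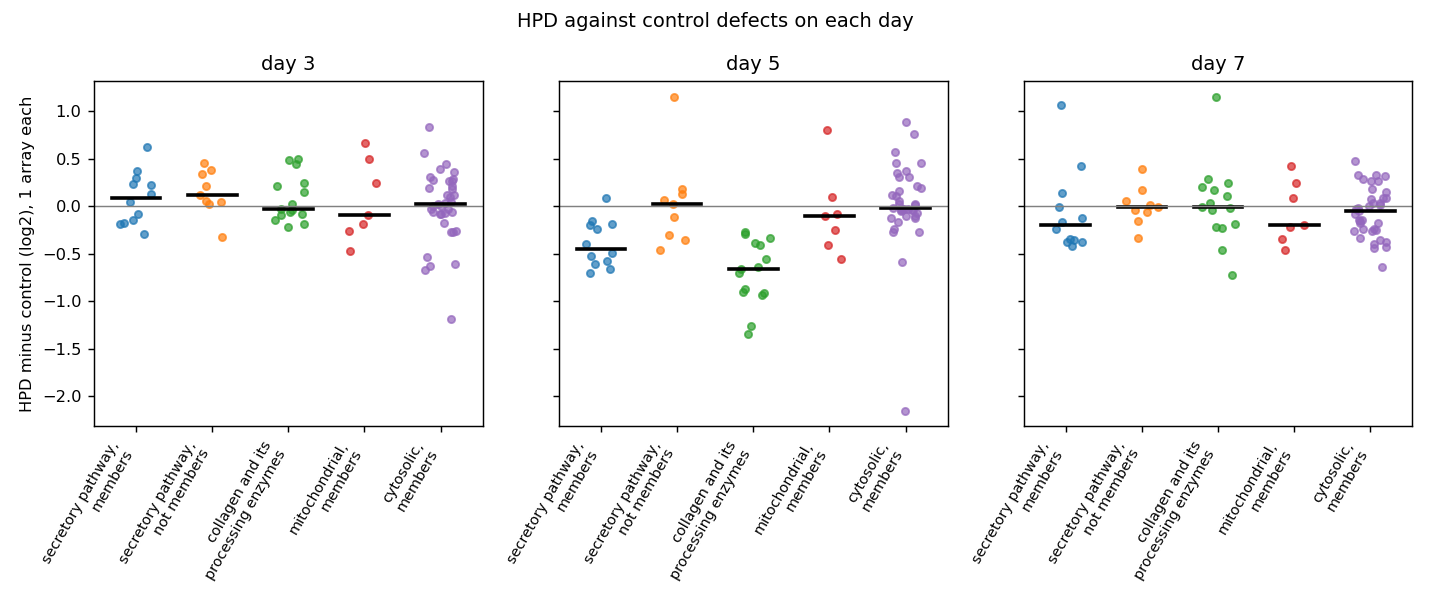
HPD minus control (log2, 1 array each) on days 3, 5 and 7 for secretory-pathway chaperones found by the search, secretory-pathway chaperones outside it, genes of collagen and its processing enzymes, mitochondrial and cytosolic chaperones; each point is 1 gene and black bars are medians. On day 5 the first group (median -0.45) and the collagen list (median -0.66) lie below 0, and the cytosolic genes (median -0.022) are spread around it.

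Over the 3 days, 14 of the 61 chaperone genes were lower in HPD on every day (23%), against 10.9% of all features, and 5 were higher on every day (8.2%, against 26.4%). Brightness moved with the count of lower genes: of features with a mean level above 0, 22.5% were lower on every day, and of the 37 chaperones at that level 10 (27%), so the share of bright chaperones was near that of bright features. An HPD effect above 0 was also rarer among features at that level, at 42.3% against 62.7% of all features.

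Of those 14 genes DNAJC19, a J protein of the mitochondrial import motor, had the lowest p. It read 3.16, 3.72 and 3.40 in HPD defects on days 3, 5 and 7, against 3.63, 4.13 and 3.86 in control defects. The HPD value was lower by 0.41 to 0.48 on each day, and the effect was -0.45 ± 0.13 (SE, limma unadjusted p = 0.0212, adjusted p = 0.556). All 5 of its probes gave an effect below 0, from -0.45 to -0.31, but neighbouring probes overlap in place, so they are not independent readings. PDIA6 followed with -0.41 ± 0.14 (unadjusted p = 0.0376), then DNAJB9 with -0.40 ± 0.16 and PDIA5 with -0.40 ± 0.15, both with unadjusted p above 0.05. HSPB8, which works with the co-chaperone BAG3, read -1.43, -1.05 and -1.35 in HPD against -0.82, -1.01 and -0.71 in control defects, an effect of -0.43 ± 0.18 that was near 0 on day 5. The second HSPB8 probe gave an effect of -0.098 and was 0.24 higher in HPD on day 5, so it was not lower on every day. BAG3 itself had an effect of -0.25.

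The 5 genes higher in HPD on every day were HSPB7, DNAJC11, HSPB9, HSPA9 and the second of the array's 2 DNAJA1 entries. HSPB7, a small heat shock protein of heart and skeletal muscle, was dim, with -3.63, -3.71 and -3.66 in HPD against -4.08, -4.28 and -3.98 in control defects. Its 3 HPD values lay above all 3 control values, and the effect was 0.45 ± 0.14 (SE, limma unadjusted p = 0.026, adjusted p = 0.556). DNAJC11, a protein of the mitochondrial outer membrane, read -1.70, -1.87 and -2.12 in HPD against -2.37, -2.67 and -2.21 in control defects, an effect of 0.52 ± 0.20 that was largest on day 5. HSPB9, known from testis, differed by 0.27, 0.34 and 0.31.

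On single days few chaperones were far from control. Blood cell genes differed more on day 3: 6 of 7 neutrophil genes (median -1.53) and 6 of 6 red cell genes (median -1.93) were lower in HPD, and their part in the chaperone values was not tested. On day 3, 1 of 61 was at least 2-fold lower in HPD, HSPA12B at -1.18 (2.9% of all features were), and none was 2-fold higher (3.59% were). The next were HSPB6 (-0.68) and DNAJA4 (-0.63) below, and CCT6B (0.83), DNAJC11 (0.67) and HSPA13 (0.63) above. On day 5, 1 was at least 2-fold lower (1.68% of all features were), DNAJC5B, a cysteine string protein, at -2.15. Its probe read -1.19 in control defects on day 5 and between -3.43 and -2.88 on the other 5 arrays, and its second probe above background differed by 0.28 on that day, so the value rests on 1 probe on 1 array. None was 2-fold higher on day 5 (4.89% were), where HSPA12B (0.89), DNAJC11 (0.80) and DNAJB2 (0.76) were highest. On day 7 none was 2-fold lower (0.85% were), where HSF2BP (-0.74), HSPB8 (-0.64) and DNAJC19 (-0.46) were lowest.

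Of the DNAJ genes of the cytosol 8 of 16 were higher and 8 lower on day 7 than on day 3, and their median HPD effect was 0.0041. DNAJA1 and DNAJA2, the main J proteins of cytosolic HSP70, differed by -0.13 and -0.031 between days 7 and 3. The array's second DNAJA1 entry differed by 0.042. DNAJB2, well above background on 5 arrays, was lower on day 7 than on day 5 by 1.12 ± 0.38 (SE, limma unadjusted p = 0.0359, adjusted p = 0.603). The array not well above background was HPD day 7, at -5.04 against -3.32 in HPD on day 5. Control defects read -4.08 on day 5 and -4.59 on day 7, so most of the difference rests on that dim value. DNAJC17, a splicing-associated J protein, was lower by 0.52 ± 0.16 on day 7 than on day 3 (adjusted p = 0.19) and lower in HPD by 0.28 to 0.34 on every day. TXNDC15, found by the search words but placed in no compartment here, had a range of 0.30. Of the 35 genes with at least 2 probes well above background, 25 had all probes on 1 side of 0 for day 7 minus day 3, and 21 for the HPD effect. Probes of 1 gene can overlap in place, as for DNAJC19, DNAJC27 and HSP90AB1, so they are not always independent readings.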

How the data were processed

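RNA of newly formed tissue was hybridised to 6 Agilent rabbit arrays in 1 colour (Cy3). Per the file headers, Agilent Feature Extraction 10.5.1.1 turned each scan into a processed intensity, with background subtracted and trends removed within the array; the deposited intensity values carry no scaling between arrays. Outlier-flagged spots (41 probes) were left out, the deposited intensity was put on the log2 scale, and each array's 75th percentile was subtracted. The brightest probe stood for a gene, and a gene was tested when well above background on at least 3 arrays. Of 43603 probes 22566 had a gene name, from the array's annotation or a RefSeq table of rabbit genes, which served for names only. Of the 63 members 58 were named by RefSeq.

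Additive day and treatment effects were tested with limma 3.58.1 in R 4.3.3 (2 residual degrees of freedom, 2.46 prior degrees of freedom), with Benjamini-Hochberg adjustment and a threshold of 0.05; the fit was tested on simulated data. Single-day values have no test, and the number of arrays limits the precision. P-values and SEs measure only how far these 6 arrays departed from additive day and treatment effects, moderated by a spread pooled over all features. They do not measure the spread between animals or between repeated arrays. A treatment order that turned round between days counted as error in this model. Normexp background (offset 50), quantile scaling, a median shift, other filters, the mean of all probes, leaving out each day, and other blocks were tried. The members and lists were chosen with earlier results of these data known. Named were 43 genes: a set of 27 of which 18 were members tested, plus the highest and lowest in each comparison. Any other gene named in the text was chosen after its values were seen. No sequence of promoters or proteins was used here.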

Additional observations from a re-analysis of the deposited data

Results flagged for a closer look

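HSPA12B was singled out because its HPD difference had opposite signs on 2 days on the same scale. The value was -1.18 on day 3 and 0.886 on day 5, HPD minus control on the log2 scale, with 1 array per treatment and day. The difference between the days was not tested. The second HSPA12B probe differed by -0.05 and 0.26 on those days.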

How the results depend on the processing

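Of 250 summary values recomputed under 11 alternatives, 206 stayed within the spread between arrays or within 1.5 times the count and 44 moved; the cause of the moves was not tested. Of 814 recomputed values of single genes, 43 differed in sign from the main value. With normexp background the chaperones past the threshold numbered 1 for day 5 minus day 3 and 4 for day 7 minus day 3 (adjusted p 0.0137 to 0.0490), against 0; under each other alternative they numbered 0. Normexp moved the median of all features by more than 0.1, to 0.13 for day 5 minus day 3 and 0.17 for day 7 minus day 3, and the median shift moved it to -0.04 for the HPD effect. The cytosolic HPD median was -0.134 with the median shift, 0.031 with the mean of all probes, and between -0.034 and 0.046 when a day was left out; the mitochondrial one was 0.034 with quantile scaling and that of all members -0.152 with the median shift. For day 5 minus day 3 the cytosolic median was 0.036 (normexp), -0.045 (quantile) and 0.102 (median shift), the mitochondrial 0.0063 (quantile), and that of all members 0.107 (normexp) and 0.113 (median shift). For day 7 minus day 3 the cytosolic median was -0.067 with either other filter. For day 7 minus day 5 the cytosolic median was -0.137 (normexp), -0.093 (quantile) and -0.251 (median shift), the mitochondrial -0.131 (quantile), and that of all members -0.069, -0.078 and -0.231 in the same order. On day 3 the HPD minus control median was 0.079 (cytosolic) and 0.184 (mitochondrial) with quantile scaling, and -0.147 (cytosolic), -0.090 (secretory), -0.263 (mitochondrial) and -0.130 (all members) with the median shift. On day 5 the cytosolic one was 0.012 (normexp), 0.032 (quantile), -0.151 (median shift) and 0.065 (mean of all probes), and that of all members -0.173 (median shift). On day 7 that of all members was -0.057 (quantile) and -0.245 (median shift), and the cytosolic one -0.149 (median shift) and -0.110 (mean of all probes). Members at least 2-fold apart numbered 0 on each day with the mean of all probes, 0 on day 7 with the median shift, and 2 on days 5 and 7 with no filter on dim features, against 1. No paired analysis was possible because each treatment and day had 1 array, so replicate numbers pair nothing beyond the day, which is in the model.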
